A study of Mus with 12 samples.

Results

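This report compares the untreated macrophages of 2 genotypes, knockout (KO) and wild type (WT), gene by gene, to describe what the KO cells were like before any lipoprotein was added. The comparison rests on 6 of the 12 RNA sequencing libraries of the series, chosen by their labels: 3 untreated KO libraries and 3 untreated WT libraries. The source of all libraries is given as mouse peritoneal macrophages, phagocytes collected from the abdominal cavity and used as primary cells. The genotype is labelled only as WT or KO, with no gene, allele, Cre driver, mouse strain, sex or age, and the series title names the kinase WEE1. The 6 untreated libraries carry no treatment label. The other 6 libraries, 3 of each genotype, are labelled oxLDL (oxidised low-density lipoprotein), although their titles say LDL, and they enter here only for the shared estimate of spread and for one comparison at the end. The labels do not say whether the 3 libraries of a group came from separate mice, so each p-value measures only the spread between these libraries. A protocol sentence in the labels speaks of RNA of an adipose type, which does not match the labelled source.

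Macrophages are tissue phagocytes that depend on signalling through CSF1R, take up dying cells, microbes and lipoproteins, and break them down in lysosomes. In the peritoneal cavity most resident macrophages are large peritoneal macrophages, maintained by the transcription factor GATA6 and marked by TIM4. A smaller population is renewed from blood monocytes and carries CCR2 and MHC class II, and provoked cavities fill with monocyte-derived cells. Mast cells, B cells, NK cells, granulocytes and mesothelial cells can be collected with them. WEE1 phosphorylates CDK1 and so holds back entry into mitosis.

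The 6 libraries held 54574550 to 76393015 counts each, with WT replicate 2 the shallowest, and 19614 to 20522 genes had counts in a library. On log2 CPM (counts scaled to the library), the first principal component carried 54.3% of the variance and separated WT from KO, and the correlation across genes was 0.976 to 0.980 within a genotype and 0.949 to 0.955 between genotypes. Of 17291 genes tested with edgeR's quasi-likelihood test, 2800 were lower in KO and 2559 higher at a Benjamini-Hochberg adjusted p under 0.05, which is 16.2% and 14.8% of the genes tested. A gene so called is written below as having fallen or risen, every log2 difference is KO minus WT, and a value after ± in brackets is its SE. Counts of list members that fell or rose are to be read against these shares of 16.2% and 14.8%. The lower side held the larger differences: 1202 of the genes that fell and 537 of those that rose differed at least 2-fold, and 376 and 67 at least 8-fold. The median log2 difference over all genes tested was -0.01. The split of the calls depended on the scaling: with library totals in place of TMM factors the median became -0.12, 3849 genes were lower and 1766 higher, so that 31.5% of the calls were higher rather than 47.8%. The 10 genes with most counts took 14.1 to 14.3% of a WT library and 17.5 to 18.1% of a KO library. FPKM (fragments per kilobase of transcript, scaled to the fragments of the library) values below carry no TMM factor, so a ratio of FPKM can differ slightly from the fitted difference.

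Wee1, the gene named in the series title, was lower in KO but not absent. The WT libraries had 3.09, 3.25 and 2.8 FPKM and the KO libraries 1.63, 1.6 and 1.22 FPKM, with no overlap between the groups. The KO mean was 48.7% of the WT mean, and the fitted log2 difference was -0.93 ± 0.14 SE, edgeR adjusted p = 0.00014. The table counts whole genes (Wee1 lies on chromosome 7, 110122046 to 110143286 on the + strand of GRCm38) and holds no exon counts. The labels do not say that Wee1 was the gene knocked out. If it was, reads from undeleted exons and reads from cells without the deletion cannot be told apart. Other reasons for a lower Wee1 were not tested. Of 33 tested genes within 2 Mb of Wee1, 3 fell and 6 rose. Ampd3, an AMP deaminase, fell from 31.8, 29.9 and 31.8 FPKM in WT to 11.9, 10.9 and 11.1 FPKM in KO (-1.36 ± 0.05), Rpl27a, a ribosomal protein gene, had a log2 difference of -0.93 ± 0.17, and Rnf141 one of -0.46 ± 0.05. Nlrp10 rose from a low level (2.24 ± 0.28), whereas Zfp143 and Swap70, which flank Wee1, were not called (0.07 ± 0.09 and -0.01 ± 0.04). The share of calls on chromosome 7 lay within that of the other chromosomes: 30.8% of its tested genes were called, against 27.1% to 34% over the chromosomes with at least 100 tested genes.

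The most abundant transcripts of both genotypes were those of phagocytes. The 10 genes with the highest mean FPKM over the 6 libraries were Lyz2, Psap, Ctsd, mt-Co1, Ftl1, Ctss, Gpnmb, B2m, Eef1a1 and Ctsb. Lyz2, the lysozyme made by myeloid cells, stood first in WT, with 18201, 18666 and 18626 FPKM in WT and 8774, 9184 and 8614 FPKM in KO (-0.96 ± 0.04 SE, edgeR adjusted p = 5.3e-11). Psap and Ctsd, genes of the lysosome, went the other way and stood above Lyz2 in every KO library. Psap, the precursor of the saposins that help degrade sphingolipids, had 8477, 8307 and 8768 FPKM in WT and 11955, 11873 and 11278 in KO (0.56 ± 0.04). Ctsd, the aspartic protease cathepsin D, had 7420.4, 7560.1 and 7614 FPKM in WT and 12276, 12818 and 12149.8 in KO (0.83 ± 0.04). Gpnmb, a glycoprotein of lipid-laden macrophages, had 2545, 2487 and 2612 FPKM in WT and 5688, 5688 and 5509 in KO (1.25 ± 0.03 SE, edgeR adjusted p = 3.7e-13). The largest genotype gaps among the 10 were therefore a lower Lyz2 and a higher Gpnmb. None of the 10 had overlapping groups in CPM, which held for 44.9% of all genes tested. B2m, the light chain of MHC class I, fell (-0.70 ± 0.06), and mt-Co1, Ftl1, Ctss, Eef1a1 and Ctsb rose by 0.14 to 0.59, though Ctss was called only with all untreated libraries in the fit or without KO replicate 1. With library totals as the scale mt-Co1, Ctss and Eef1a1 were not called, and the other genes of the 10 kept their direction and their call.

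Both genotypes expressed the core genes of a macrophage, at levels that differed in each in this fit. Of 20 core macrophage genes, all of which were tested, 13 fell and 7 rose, with a median log2 difference of -0.23 against -0.01 over all genes. In bulk RNA, fewer cells of a type and less RNA per cell cannot be told apart. Adgre1, which encodes the macrophage marker F4/80, had 539, 564 and 533 FPKM in WT and 159, 158 and 157 FPKM in KO (-1.68 ± 0.03 SE, edgeR adjusted p = 7.5e-14). Csf1r, the receptor for the growth factor CSF1, had 274, 264 and 281 FPKM in WT and 131, 129.7 and 133 in KO (-0.95 ± 0.04 SE, edgeR adjusted p = 5.2e-11). The groups lay far apart for both, and the 3 KO libraries were within a few FPKM of each other. Fcgr1, the high-affinity IgG receptor CD64, had 39.4, 41.7 and 41.6 FPKM in WT and 9.3, 9.43 and 9.22 in KO (-2.03 ± 0.05), and Cd14, the co-receptor for lipopolysaccharide, had 79.8, 80.9 and 87.6 in WT and 24.1, 25.4 and 23.6 in KO (-1.66 ± 0.05). Marco, a scavenger receptor for bacteria and particles, showed the largest gap of the list, from 107, 98.1 and 99.7 FPKM in WT to 2.23, 3.3 and 2.87 FPKM in KO (-5.07 ± 0.12 SE, edgeR adjusted p = 2.1e-13). Msr1 (-1.30 ± 0.05) and Siglec1 (-1.35 ± 0.07), a scavenger receptor and a sialic acid receptor, fell as well. The integrin Itgam (-0.28 ± 0.04), the efferocytosis receptor Mertk (-0.13 ± 0.04), the leukocyte phosphatase Ptprc (-0.24 ± 0.04), Fcer1g (-0.21 ± 0.07) and Sirpa (-0.11 ± 0.04) fell by much less. The calls of Fcer1g (without any untreated library but WT replicate 3), Mertk and Sirpa (without any but WT replicate 2) were lost on leaving out 1 library.

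The 7 core genes that rose were mostly genes of lysosomes, lipid uptake and lipid sensing. Trem2, a receptor for lipids and apoptotic cells, had 76.7, 80.2 and 87.3 FPKM in WT and 159, 171 and 151 FPKM in KO (1.08 ± 0.06 SE, edgeR adjusted p = 4.3e-09). Cd63, a tetraspanin of late endosomes, rose by 1.02 ± 0.07 and Cd36, a scavenger receptor for oxidised lipoprotein and fatty acids, by 0.92 ± 0.05. Cd68, a lysosomal glycoprotein, went from 1679, 1599.9 and 1609 to 1944, 2106 and 1953 FPKM (0.40 ± 0.05) and Tyrobp, the signalling adaptor of Trem2, rose by 0.36 ± 0.09. Gpnmb and Ctsd, given above, are the remaining members.

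**Figure D1:**
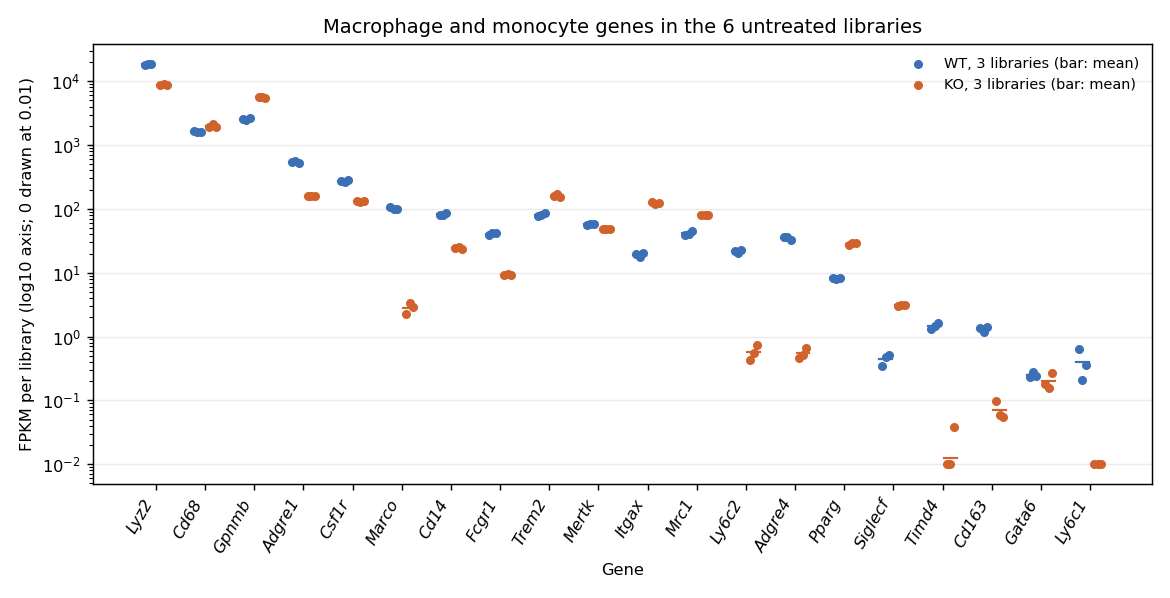
FPKM of 20 macrophage, monocyte and peritoneal subset genes in each of the 3 untreated WT and 3 untreated KO libraries, on a log10 axis with zeros drawn at 0.01 and a bar at the group mean. Lyz2, Adgre1, Csf1r, Marco, Ly6c2 and Adgre4 sit lower in KO, and Gpnmb, Trem2, Itgax, Mrc1, Pparg and Siglecf sit higher, while Gata6 is below 1 in all 6 libraries.

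Among 18 transcription factors of the lineage, 7 fell, 4 rose and 7 were not called. Of all genes tested, 16.2% fell and 14.8% rose. Pparg, which drives lipid handling in alveolar and lipid-rich macrophages, rose from 8.2, 8.1 and 8.18 FPKM in WT to 27.3, 29.3 and 28.9 in KO (1.91 ± 0.06 SE, edgeR adjusted p = 9.1e-12). Bhlhe40, a factor of proliferating and alveolar macrophages, had 42, 40.9 and 40.1 FPKM in WT and 122, 117 and 114 in KO (1.63 ± 0.05), and Cebpa had 15.4, 15.6 and 15.7 in WT and 30.6, 31 and 30.5 in KO (1.08 ± 0.08). Groups did not overlap for these 3 factors, as for 44.9% of all genes tested in CPM. Spi1, which encodes the lineage master factor PU.1, fell slightly (-0.21 ± 0.06, not called without KO replicate 3, WT replicate 1 or WT replicate 3), as did Maf (-0.63 ± 0.06), which restrains self-renewal. Klf2 fell more (-1.60 ± 0.28), and Cebpb, an inflammatory factor, fell from a level under 1 FPKM (-1.83 ± 0.29). Irf8 (-0.10 ± 0.07), Runx1 (0.04 ± 0.06) and Zeb2 (0.09 ± 0.04) were not called, and neither was Tfeb, the regulator of lysosome genes (0.49 ± 0.18 SE, edgeR adjusted p = 0.053).

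Gata6 and Timd4, which mark large peritoneal macrophages, were low in both genotypes, while the list of genes of these cells summed to 705 to 726 FPKM in WT and 287 to 295 FPKM in KO, most of it Adgre1. Gata6, their defining factor, had 0.23, 0.278 and 0.241 FPKM in WT and 0.178, 0.155 and 0.265 in KO, with overlapping groups (-0.22 ± 0.32 SE, edgeR adjusted p = 0.68). Timd4, which encodes TIM4, had 1.32, 1.47 and 1.61 FPKM in WT and 0, 0 and 0.0378 in KO, where 2 of 3 libraries had no count (-6.57 ± 0.62 SE, edgeR adjusted p = 1e-06). Alox15 was listed at 0 in all but 1 library, and Vsig4 was near 1 FPKM in both genotypes (0.13 ± 0.22). Gata6 and Timd4 were at most 1.61 FPKM in every library, while Adgre1, which both peritoneal populations express, was at least 157 FPKM. Of the 18 genes of this list, 6 fell and 4 rose, against 16.2% and 14.8% of all genes tested. Serpinb2, a serine protease inhibitor, fell from 8.54, 7.73 and 7.84 to 0.989, 1.43 and 0.851 FPKM (-2.77 ± 0.17 SE, edgeR adjusted p = 8.3e-09), Cxcl13, a B cell chemokine, fell (-1.39 ± 0.10), and coagulation factor F10 fell (-0.62 ± 0.05). Fn1, fibronectin, rose from 25.3, 22.4 and 27.2 FPKM to 49.4, 45.7 and 48.8 FPKM (1.05 ± 0.08), and coagulation factor F5 rose from a low level (1.44 ± 0.19).

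The list of small peritoneal and monocyte-derived macrophage genes had no single direction, with 3 of 14 lower and 6 higher. The shares over all genes tested were 16.2% lower and 14.8% higher. Mrc1, the mannose receptor CD206, rose from 39.5, 41 and 44.7 FPKM in WT to 81.4, 79.4 and 79.1 in KO (1.05 ± 0.05 SE, edgeR adjusted p = 4.3e-10). Ccr2, the receptor that brings monocytes out of the marrow, rose (1.09 ± 0.15) and so did Irf4 (0.97 ± 0.30), both from under 1 FPKM, though Irf4 was not called without KO replicate 1, WT replicate 2 or WT replicate 3. Cd163, a haemoglobin scavenger receptor, had 1.37, 1.2 and 1.42 FPKM in WT and 0.099, 0.0581 and 0.055 in KO (-4.09 ± 0.29), and the folate receptor Folr2 fell (-0.93 ± 0.10). Retnla and Lyve1 were close to 0 in both genotypes and were not called (0.07 ± 1.16 and 0.93 ± 1.56).

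Monocyte genes were much lower in KO. Of 10 classical monocyte genes, 9 fell and only Ccr2 rose, and the median log2 difference was -2.89. Among all genes tested, 16.2% fell and 14.8% rose. Ly6c2, a gene of the Ly6C epitope used to sort these cells, had 21.9, 20.3 and 22.6 FPKM in WT and 0.425, 0.552 and 0.724 FPKM in KO (-5.13 ± 0.14 SE, edgeR adjusted p = 6.9e-13). Hp, which encodes haptoglobin, had 179.7, 169 and 194 FPKM in WT and 5.83, 5.49 and 5.3 in KO (-4.92 ± 0.10 SE, edgeR adjusted p = 7.5e-14). Ly6c1, the other gene of that epitope, was listed at 0 in every KO library and had 155 counts over the WT libraries, which is at least 52.6-fold lower against a floor of 3 counts over the KO group. Ms4a4c (-4.00 ± 0.12), Plac8 (-3.44 ± 0.20) and the matrix proteoglycan Vcan (-1.37 ± 0.12) fell, and the chitinase-like Chil3 (-1.01 ± 0.07) and the transglutaminase F13a1 (-0.95 ± 0.06) fell about 2-fold. For these 8 genes the highest KO library was below the lowest WT library. Over all genes tested, 44.9% had groups without overlap in CPM, in either direction.

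Non-classical monocyte genes split, with 6 of 10 lower and 2 higher, against 16.2% and 14.8% of all genes tested. Adgre4, an adhesion receptor close to F4/80, had 35.7, 36.2 and 32.3 FPKM in WT and 0.453, 0.515 and 0.67 in KO (-5.88 ± 0.14 SE, edgeR adjusted p = 2.5e-13). Itgal, the LFA-1 alpha chain, had 39.5, 37.1 and 39.1 FPKM in WT and 10.5, 10.2 and 10.3 in KO (-1.80 ± 0.05), and Treml4 fell (-1.58 ± 0.15). Ace, angiotensin-converting enzyme, went the other way, from 0.122, 0.202 and 0.182 FPKM in WT to 2.32, 2.3 and 2.48 in KO (3.92 ± 0.23 SE, edgeR adjusted p = 4.7e-09), and the fractalkine receptor Cx3cr1 rose from a low level (1.03 ± 0.29), a call lost without WT replicate 2.

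KO cells were higher in several surface genes that are used to define dendritic cells, eosinophils and lymphocytes, while many other markers of those cells were low and the immunoglobulin genes of B cells were lower in KO. Itgax, the CD11c integrin chain of dendritic cells and some macrophages, had 19.998, 17.4 and 20.4 FPKM in WT and 131, 121 and 125 FPKM in KO (2.81 ± 0.06 SE, edgeR adjusted p = 7.5e-14). Flt3, Xcr1, Siglech and Zbtb46, which mark dendritic cells, stayed at or below 0.132 FPKM in every library, and the lectin Cd209a was listed at 0 in WT and had 0.424, 0.518 and 0.418 FPKM in KO, at least 56-fold higher against the same floor. Siglecf, a sialic acid receptor of eosinophils and alveolar macrophages, had 0.342, 0.482 and 0.517 FPKM in WT and 3.05, 3.09 and 3.15 in KO (2.89 ± 0.17 SE, edgeR adjusted p = 4e-09), whereas the eosinophil granule genes Prg2 and Epx had at most 4 counts in a group. Cd28, the T cell costimulatory receptor, had 1.96, 2.04 and 1.76 FPKM in WT and 11.9, 10.7 and 13.4 in KO (2.75 ± 0.08 SE, edgeR adjusted p = 3.3e-12), and Cd22, a B cell inhibitory receptor, had 19.9, 18.8 and 19.4 in WT and 39.8, 37.1 and 36.5 in KO (1.07 ± 0.05 SE, edgeR adjusted p = 6.6e-10). Of the receptor genes of those lymphocytes, Cd3e, Cd3d, Cd3g, Ms4a1 and Cd79a were at most 0.83 FPKM in all 6 libraries. Cd79b, the partner of Cd79a, had 0.358, 0.758 and 0.457 FPKM in WT and 1.18, 0.591 and 0.996 in KO. It was not called (0.92 ± 0.34 SE, edgeR adjusted p = 0.052). The B cell list as a whole summed to 63.7 to 69.3 FPKM in WT and 49 to 56.8 FPKM in KO, nearly all of it Cd22, which rose, and Ighm and Igkc, which fell and are given with the other B cell genes. Cxcr2, a granulocyte chemokine receptor, rose from 0.0324, 0.0419 and 0.0578 FPKM to 0.716, 1.13 and 1.04 FPKM (4.49 ± 0.31), with Ly6g at 0 counts in all 6 libraries and S100a9 at 3 counts in all.

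NK cell transcripts were present at a low level in WT and nearly missing in KO. The 9 listed NK cell genes summed to 3.75 to 4.88 FPKM in WT libraries and 0.0171 to 0.0937 FPKM in KO libraries. Of these 9, 8 passed the filter on low counts, through their WT libraries, and fell, and 7 of them had 0 counts in all 3 KO libraries. Gzmb, the protease granzyme B of cytotoxic granules, had 0.661, 0.892 and 1.2 FPKM in WT, and its 288 counts against 0 in KO are at least 97.7-fold lower. Ncr1, the NK receptor NKp46, had 0.533, 0.847 and 0.903 FPKM in WT and was at least 85.8-fold lower in KO, and the pore-forming Prf1 at least 78-fold lower. Il2rb, the receptor chain for IL-2 and IL-15, had 1.07, 1.02 and 1.04 FPKM in WT and 0, 0.0109 and 0.0467 in KO (-5.60 ± 0.61 SE, edgeR adjusted p = 4e-06). The median log2 difference of the list was -8.29 as fitted and -5.49 with the genes at 0 placed at their bound. Ifng, the interferon that NK and T cells secrete, was named after its values were seen: it had 71, 48 and 47 counts in the WT libraries and 8, 0 and 2 in the KO libraries (-4.03 ± 0.53).

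Most T cell and mast cell transcripts were also low, and the genes of the T cell, mast cell and B cell lists that differed were mostly lower in KO. Of 17 T cell genes 13 passed the filter, of which 5 fell, among them Cd3e, Cd3g, Trac and Lck, and 2, Cd28 and the adaptor Lat, rose, though Lat was not called without KO replicate 2 or WT replicate 1. The number that fell was 2, 3 and 1 without KO replicates 1, 2 and 3, 3 without WT replicate 1 or without WT replicate 3, and 8 with only the 6 untreated libraries in the fit. Trac, the T cell receptor alpha constant gene, had 0.531, 0.443 and 0.327 FPKM in WT and 0 counts in all KO libraries, at least 30.9-fold lower, though it was not called without any one of the KO libraries or without WT replicate 1. Mast cell genes summed to 6.14 to 7.1 FPKM in WT and 1.6 to 2.21 FPKM in KO, and 7 of the 11 that passed the filter, of 13 listed, fell. Their tryptase Tpsb2 had 1.52, 1.42 and 1.33 FPKM in WT and 0.28, 0.171 and 0.305 in KO (-2.37 ± 0.36), the carboxypeptidase Cpa3 1.21, 1.61 and 1.2 in WT and 0.305, 0.37 and 0.617 in KO (-1.52 ± 0.33), and the stem cell factor receptor Kit fell (-1.56 ± 0.22). Of 16 B cell genes 14 passed the filter, of which Ighm, Igkc and Jchain fell and Cd22 rose. Ighm, the IgM heavy chain, had 22.7, 19.4 and 25 FPKM in WT and 6.85, 6.64 and 5.22 in KO (-1.74 ± 0.13 SE, edgeR adjusted p = 8.4e-08) and the light chain Igkc 22.4, 21.1 and 21.4 in WT and 6.67, 5.53 and 4.74 in KO (-1.83 ± 0.14), with no overlap between the groups. Cd79a (0.28 ± 0.44) and Pax5 (0.41 ± 0.46) were not called.

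Most tested genes of the neutrophil list were lower in KO, while Ly6g, its defining member, was at 0. Of 14 genes 8 passed the filter and 6 of those fell, while Cxcr2 rose. Mmp9, a gelatinase, had 12.6, 13.2 and 13 FPKM in WT and 0.5, 0.282 and 0.352 in KO (-4.97 ± 0.20 SE, edgeR adjusted p = 6e-11) and Lcn2, which binds bacterial siderophores, 11.2, 11.1 and 11.5 in WT and 0.354, 0.11 and 0.206 in KO (-5.50 ± 0.22 SE, edgeR adjusted p = 7.1e-11). Csf3r, the G-CSF receptor, fell from 63, 58.8 and 61.6 to 34.3, 33.3 and 34.9 FPKM (-0.73 ± 0.06), and S100a8, a subunit of calprotectin, from 3.41, 2.72 and 3.4 to 1.32, 1.61 and 1.49 FPKM (-0.99 ± 0.22 SE, edgeR adjusted p = 0.0024). Camp, the antimicrobial cathelicidin, had 53 counts over the WT libraries and 5 over the KO libraries, all in replicate 1 (-3.30 ± 0.93 SE, edgeR adjusted p = 0.017), and was not called without KO replicate 3 or WT replicate 3. The neutrophil genes Ly6g, Elane, Retnlg and S100a9 had at most 10 counts in a group. Pf4, the only platelet gene that fell, is made by macrophages too (-1.32 ± 0.09), and Ppbp, a platelet gene, was at 0 counts throughout.

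Stromal transcripts were few. Mesothelial genes summed to 3.27 to 3.69 FPKM in WT and 2.94 to 4.11 in KO, and none of 10 tested was called by edgeR's test (1 at an unadjusted p under 0.05), by DESeq2 or by limma. Of 8 fibroblast genes tested, 4 fell, among them Col1a1 (-0.87 ± 0.16) and Dcn (-0.78 ± 0.11), while Col1a2 (-0.15 ± 0.07) and Col3a1 (-0.11 ± 0.09) did not pass. The fibroblast sum was 13.2 to 14.1 FPKM in WT and 8.63 to 9.33 in KO. Of 4 endothelial genes tested, Kdr rose (0.27 ± 0.07, not called under library totals), Pecam1 fell (-2.64 ± 0.63) and 2 were not called. Endothelial genes other than Kdr stayed at or below 0.162 FPKM, and erythroid and adipocyte genes had too few counts to test. The parts that these other cell types had in the differences described here and below were not tested.

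**Figure D2:**
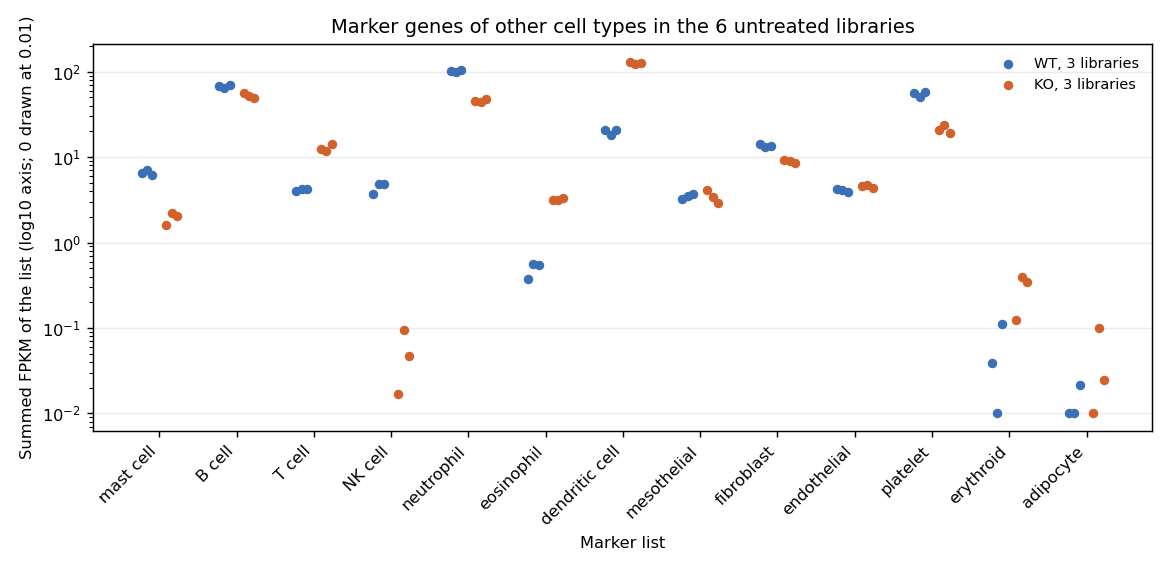
Summed FPKM of 13 marker lists for other cell types in each of the 3 untreated WT and 3 untreated KO libraries, on a log10 axis with zeros drawn at 0.01. NK cell, mast cell, B cell, neutrophil, fibroblast and platelet sums are lower in KO. The platelet sum is nearly all Pf4, which macrophages make too, and most of the neutrophil sum is Csf3r, Mmp9, Mmp8 and Lcn2, with Ly6g at 0. In the B cell sum Ighm and Igkc are lower and Cd22 is higher. The higher dendritic cell, T cell and eosinophil sums in KO rest on Itgax, Cd28 and Siglecf.

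Sex and strain markers differed little between the genotypes. The Y-linked genes Ddx3y (0.10 ± 0.07), Uty (0.20 ± 0.09) and Eif2s3y (-0.15 ± 0.08) were not called, Kdm5d rose (0.24 ± 0.09) in this fit but not with library totals or without any one of 5 untreated libraries (all but KO replicate 1), and Xist had 0.0903, 0.233 and 0.115 FPKM in WT and 0.161, 0.0766 and 0.0713 in KO. None of 4 tested genes that differ among inbred mouse strains (Nnt, Wdfy1, Glo1 and Nlrp1b) was called by edgeR's test (1 at an unadjusted p under 0.05), DESeq2 or limma, and 1 of them was with only the 6 untreated libraries in the fit.

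Complement genes, which macrophages make locally to tag microbes and debris, were lower in KO. Of 15 genes, 12 fell and 2 rose, against 16.2% and 14.8% of all genes tested, with a median of -1.81. Cfb, the protease of the alternative pathway, had 651, 605 and 629 FPKM in WT and 8.08, 7.27 and 9.17 FPKM in KO (-6.16 ± 0.12 SE, edgeR adjusted p = 5.6e-14), and C3, the central component, had 348, 292 and 331 in WT and 17.6, 16.2 and 18.4 in KO (-4.11 ± 0.08 SE, edgeR adjusted p = 5.6e-14). Every KO library was far below every WT library for both. The 3 chains of C1q fell, with C1qa at 164, 152 and 153 FPKM in WT and 33.5, 31.4 and 29.98 in KO (-2.20 ± 0.09), C1qb differing by -1.10 ± 0.07 and C1qc by -1.81 ± 0.19. Of the receptors, C5ar1 fell (-1.84 ± 0.06), C3ar1 was not called (-0.04 ± 0.05), and the integrin chains Itgam and Itgax went in opposite directions, as given above.

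Receptors for chemoattractants and microbes went both ways. Their counts stand beside the 16.2% of all genes tested that fell and the 14.8% that rose. The formyl peptide receptors, which guide phagocytes to bacteria, fell most among the chemoattractant receptors: Fpr1 had 107, 115 and 108 FPKM in WT and 1.4, 1.33 and 1.82 in KO (-6.07 ± 0.21 SE, edgeR adjusted p = 1.5e-11), and Fpr2 had 131, 119 and 115 in WT and 1.03, 1.16 and 1.52 in KO (-6.51 ± 0.15 SE, edgeR adjusted p = 1.9e-13). Of 15 receptors of that list, 5 fell and 6 rose. The latter included Cxcr2, from a level under 0.1 FPKM (4.49 ± 0.31), Cxcr4 (0.89 ± 0.07) and Ccr1 (0.46 ± 0.09). Among 15 myeloid C-type lectins, 8 fell. Clec4e, the receptor Mincle for mycobacterial glycolipid, had 463, 476 and 439 FPKM in WT and 39.8, 40.2 and 41.3 in KO (-3.40 ± 0.05 SE, edgeR adjusted p = 1.4e-14), and Clec4a1 fell (-2.96 ± 0.06), while Clec7a, the beta-glucan receptor Dectin-1, rose (0.75 ± 0.05). Toll-like receptors and adaptors had 12 of 22 members lower and 5 higher. Tlr2 fell from 128, 119 and 125 to 19, 18.5 and 17.9 FPKM (-2.64 ± 0.05), Tlr4 fell by less (-0.69 ± 0.05), Tlr8 was not called (0.11 ± 0.05) and the adaptor Ticam1 rose (0.63 ± 0.07). With library totals as the scale 3 members were higher. Among Fc receptors Fcgr4 fell (-0.95 ± 0.06), Fcgr2b fell slightly (-0.21 ± 0.04) and Fcgr3 rose (0.28 ± 0.04).

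Interferon-induced genes were lower without exception among those listed. All 34 antiviral genes fell, with a median of -3.17, as did all 18 guanylate binding proteins and immunity-related GTPases, with a median of -5.05. Ifit2, an inhibitor of viral translation, had 123, 132 and 118 FPKM in WT and 1.32, 1.47 and 1.86 in KO (-6.22 ± 0.15 SE, edgeR adjusted p = 2.2e-13), and Gbp2, a GTPase that attacks pathogen vacuoles, had 226, 203 and 187 in WT and 6.06, 7.02 and 6.89 in KO (-4.84 ± 0.10 SE, edgeR adjusted p = 1.1e-13). Among the signalling genes, the transcription factor Irf7 had 115, 117 and 117 FPKM in WT and 3.9, 5.03 and 4.92 in KO (-4.54 ± 0.10 SE, edgeR adjusted p = 1.7e-13), and Irf1 fell (-3.56 ± 0.07). The receptors moved less: Ifnar1 and Ifnar2 fell (-0.61 ± 0.04 and -0.51 ± 0.05), Ifngr1 was not called (-0.05 ± 0.05) and Ifngr2 rose (0.29 ± 0.04). Ifnb1 had no count in 5 of the 6 libraries. The NK cell genes and Ifng given above were low in the same KO libraries, and their part in the lower interferon-induced genes was not tested. Members of these families share near-identical stretches, so the split of reads between them is uncertain.

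Genes of MHC class I presentation were lower in KO, and those of class II went both ways. All 16 class I genes fell, with a median of -1.91. H2-K1, a classical heavy chain, had 506, 508 and 519 FPKM in WT and 187, 204 and 179 in KO (-1.32 ± 0.06 SE, edgeR adjusted p = 1.7e-10), while H2-D1 fell only slightly, from 1342, 1335 and 1398 to 1111, 1186 and 1076 FPKM (-0.17 ± 0.04, not called without KO replicate 3). Tap1, which pumps peptides into the endoplasmic reticulum, had 49.4, 49.4 and 49.6 FPKM in WT and 7.1, 7.87 and 7.42 in KO (-2.62 ± 0.05 SE, edgeR adjusted p = 5.1e-14), and Nlrc5, the transactivator of the class I genes, fell (-2.59 ± 0.04). Of 12 class II genes, 5 fell and 2 rose, against 16.2% and 14.8% of all genes tested. H2-Aa had 35, 34 and 33.2 FPKM in WT and 36.6, 37.7 and 35.1 in KO (0.20 ± 0.04), H2-Ab1 (-0.33 ± 0.18) and H2-Eb1 (-0.10 ± 0.15) were not called, and the invariant chain Cd74 rose (0.54 ± 0.08), whereas the class II transactivator Ciita fell (-1.52 ± 0.11). Of the costimulatory genes, Cd40 fell from 8.14, 8.48 and 8.27 to 0.935, 0.932 and 0.758 FPKM (-3.13 ± 0.12 SE, edgeR adjusted p = 3.3e-11) and Cd86 and Cd274 fell (-1.2 ± 0.09 and -1.21 ± 0.05), while the inhibitory receptor Vsir had 52.8, 53.1 and 52.5 in WT and 125, 125 and 121 in KO (1.34 ± 0.05 SE, edgeR adjusted p = 1.1e-11) and Havcr2 rose (0.95 ± 0.10).

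Inflammatory mediators were mostly lower in KO. Of 19 cytokines tested, 15 fell and none rose by edgeR's test, DESeq2 or limma (1 was higher at an unadjusted p under 0.05, median -2.40, or -2.34 with genes at 0 in KO at their bound). Il18 had 9.82, 12 and 10.1 FPKM in WT and 2.23, 2.46 and 2.51 in KO (-2.04 ± 0.11), while Il1a fell only slightly, from 34.3, 31.3 and 35.5 to 26.9, 28.1 and 27.9 (-0.18 ± 0.05, not called without KO replicate 1, WT replicate 1 or WT replicate 3), and Osm was not called (0.31 ± 0.14). Of 11 CC and 12 CXC chemokines tested, 8 and 8 fell and none rose by these tools (0 and 1 at an unadjusted p under 0.05). The abundant Ccl6 had 643, 616 and 719 FPKM in WT and 223, 228 and 209 in KO (-1.48 ± 0.07 SE, edgeR adjusted p = 6.4e-10), and Ccl5 had 41.7, 41.7 and 38.7 in WT and 1.48, 1.24 and 1.38 in KO (-4.78 ± 0.19 SE, edgeR adjusted p = 5.1e-11). Among 16 inflammasome genes 8 fell and 3 rose, against 16.2% and 14.8% of all genes tested. Those that fell were led by Mefv (-3.24 ± 0.08), which encodes the sensor pyrin, with Nlrp3 (-2.03 ± 0.05) and Casp4 (-2.03 ± 0.08). The adaptor Pycard (-0.03 ± 0.07) and the DNA sensor Aim2 (-0.06 ± 0.06) were not called. Of 8 nitric oxide and arginine genes 6 fell and 1 rose. Among those that fell were the synthase Nos2 (-2.53 ± 0.36), both arginases Arg1 (-2.96 ± 0.20) and Arg2 (-2.89 ± 0.17), and Ass1, which remakes arginine (-2.47 ± 0.10).

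**Figure D3:**
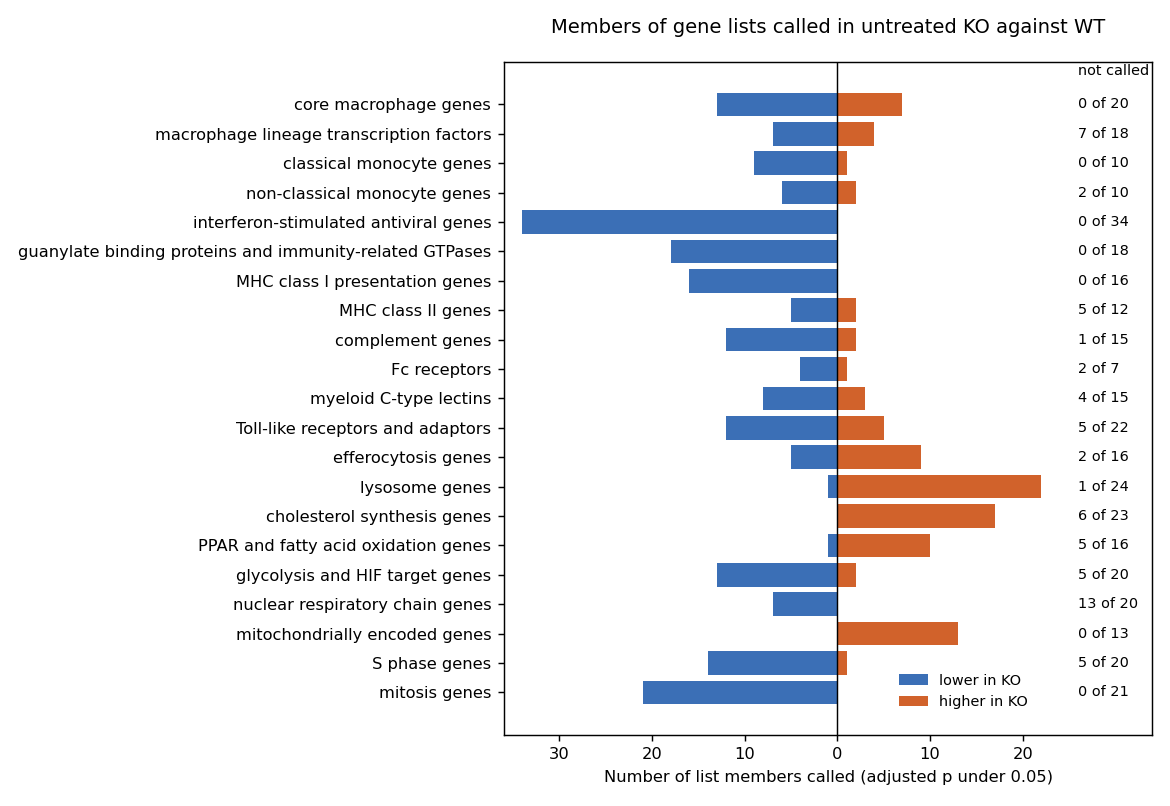
Number of members of 21 gene lists called lower (left) or higher (right) in untreated KO than in untreated WT by edgeR's test, with the number not called of those tested at the right. All 34 antiviral, 16 MHC class I and 21 mitosis genes fell, and 22 of 24 lysosome genes and 13 of 13 mitochondrially encoded genes rose.

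Lysosome genes rose in KO. Of 24 genes, 22 rose, 1 (Ctsz) fell slightly (-0.15 ± 0.05, not called without KO replicate 1 or 3 or WT replicate 1 or 3) and Tfeb was not called, against 14.8% of all genes higher. Most differences were small, with a median of 0.44. Under library totals the median was 0.34 and 15 members were called higher. Atp6v0d2, a subunit of the proton pump found in macrophages and osteoclasts, had 159, 162 and 161 FPKM in WT and 619, 602 and 634 in KO (2.05 ± 0.04 SE, edgeR adjusted p = 2.3e-14). Ctsl, the protease cathepsin L, had 125, 133 and 132 in WT and 419, 440.2 and 436 in KO (1.84 ± 0.08 SE, edgeR adjusted p = 1.2e-10), and the pump subunit Atp6v0a1 62.3, 58.8 and 62.1 in WT and 188, 170.4 and 178 in KO (1.65 ± 0.06 SE, edgeR adjusted p = 1.3e-11). These 3 genes differed at least 2-fold, unlike the rest of the list. Gusb, Lipa and Ctsa, which break down glycosaminoglycans, cholesteryl esters and peptides, rose by 0.61, 0.61 and 0.60, and the membrane proteins Lamp1 (0.24 ± 0.03) and Lamp2 (0.18 ± 0.04) by less.

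Genes for the clearance of dying cells went both ways, with 9 of 16 higher and 5 lower. Mfge8, a secreted bridge between phosphatidylserine and integrins, had 40.3, 38.8 and 43.1 FPKM in WT and 171, 175 and 159.5 in KO (2.15 ± 0.05 SE, edgeR adjusted p = 2.2e-13). Its integrin partners Itgb3 (2.2, 2.38 and 2.53 FPKM in WT and 10.8, 11.9 and 10.5 in KO, 2.33 ± 0.07) and Itgb5 (32.3, 32 and 34.9 FPKM in WT and 88.1, 88.2 and 83.7 in KO, 1.5 ± 0.05) rose, and Itgav rose by less (0.44 ± 0.05). Lrp1, a large endocytic receptor, rose (0.89 ± 0.07), as did Gas6 (0.52 ± 0.06), the bridge for the TAM receptors. Those receptors did not follow: Axl fell (-0.33 ± 0.05) and Mertk fell slightly. Timd4 and Stab1, 2 direct phosphatidylserine receptors, fell (-6.57 ± 0.62 and -1.56 ± 0.05).

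Lipid genes were mostly higher in KO before any lipoprotein was given. Of 23 cholesterol synthesis genes tested 17 rose and none fell by edgeR's test, DESeq2 or limma (0 at an unadjusted p under 0.05), of 12 fatty acid synthesis genes 9 rose, and of 16 PPAR and fatty acid oxidation genes 10 rose. Their medians were 0.53, 0.46 and 0.41. Under library totals, or without WT replicate 1, 1 cholesterol synthesis gene was called lower (Mvk under library totals). Mgll, the monoacylglycerol lipase, had 7.69, 7.64 and 6.61 FPKM in WT and 37.6, 38 and 34.9 in KO (2.44 ± 0.08 SE, edgeR adjusted p = 7.2e-12), and the fatty acid carrier Fabp4 had 61.1, 65.5 and 62.1 in WT and 116, 132 and 122 in KO (1.08 ± 0.09 SE, edgeR adjusted p = 3.2e-07). The largest among the sterol enzymes was Sc5d (1.08 ± 0.07), and the desaturase Scd2 rose (0.93 ± 0.06), while Srebf2, which drives the sterol genes, was not called (0.12 ± 0.09). The lipid exporters parted: Abcg1 rose from 16.1, 15 and 16.7 to 37.1, 36.5 and 35.5 FPKM (1.30 ± 0.07 SE, edgeR adjusted p = 1.1e-09) and Abca1 fell from 54.6, 56.2 and 56.4 to 15.1, 16.1 and 16.4 (-1.71 ± 0.04 SE, edgeR adjusted p = 4.8e-13). Apoe, the apolipoprotein that carries exported cholesterol, had 874, 883 and 976 FPKM in WT and 1348, 1493 and 1222 in KO (0.68 ± 0.06). Scavenger receptors parted as well, 5 of 13 lower and 5 higher, with Scarf1 lower (-3.16 ± 0.11) and Scarb1 higher (0.45 ± 0.08) beside Marco, Msr1 and Cd36.

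Mitochondrially encoded genes were higher in KO, and the called genes of the nuclear respiratory chain and glycolysis lists were mostly lower. All 13 mitochondrially encoded genes rose, with a median of 0.46 and differences from 0.24 (mt-Co1) to 0.60 (mt-Nd4). Of these, 10 did so under library totals. mt-Nd4, a subunit of complex I, had 1095, 939 and 853 FPKM in WT and 1397, 1163 and 1524 in KO (0.60 ± 0.11 SE, edgeR adjusted p = 0.00058), and the lowest KO library, replicate 2, was close to the highest WT library. Of 20 respiratory chain genes of the nucleus, 7 fell and none rose by edgeR's test, DESeq2 or limma (0 at an unadjusted p under 0.05), with a median of -0.18. The number that fell was 3 without KO replicate 1 and 4 without WT replicate 1 or without WT replicate 2, and it was 12 under library totals. Of 20 glycolysis and HIF target genes 13 fell, among them Pfkl (-0.90 ± 0.07), the regulator Pfkfb3 (-0.63 ± 0.04) and Hif1a (-0.45 ± 0.05), while Pgam1 and Ldha rose (0.32 ± 0.07 and 0.19 ± 0.06). Ldha was not called under library totals or without KO replicate 1, KO replicate 2, WT replicate 1 or WT replicate 2. Itaconate and tricarboxylic acid cycle genes went both ways, with 5 of 15 lower and 4 higher, and 8 lower under library totals or by limma on FPKM. Acod1, which makes itaconate in activated macrophages, had 495, 444 and 459 FPKM in WT and 10.7, 11.2 and 12.1 in KO (-5.26 ± 0.10 SE, edgeR adjusted p = 5.8e-14). Gapdh, which has many processed copies in the genome, was listed at only 4.29, 4.51 and 4.47 FPKM in WT and 3.4, 3.98 and 3.16 in KO, and it was not called (-0.22 ± 0.09).

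Cell cycle genes were lower in KO. All 21 mitosis genes fell, with a median of -1.47, and of 20 S phase genes 14 fell and 1, Pcna, rose (0.28 ± 0.05). Mki67, the proliferation marker Ki-67, had 14.6, 13.6 and 14.3 FPKM in WT and 2.88, 2.48 and 3.07 in KO (-2.23 ± 0.07 SE, edgeR adjusted p = 4.2e-12), and the topoisomerase Top2a 4.53, 4.77 and 4.86 in WT and 1.31, 1.31 and 1.3 in KO (-1.75 ± 0.08 SE, edgeR adjusted p = 3.4e-10). The target of WEE1, Cdk1, had 1.15, 1.11 and 1.16 FPKM in WT and 0.576, 0.492 and 0.56 in KO (-0.97 ± 0.19 SE, edgeR adjusted p = 0.001), and its partner Ccnb1 2.69, 2.74 and 2.34 in WT and 1.05, 1.05 and 1.05 in KO (-1.19 ± 0.14 SE, edgeR adjusted p = 8e-06). WT levels were low for most of these genes, and the groups did not overlap for any of the mitosis genes, against 44.9% of all genes tested without overlap in CPM. Uhrf1, which maintains DNA methylation in S phase, fell (-1.88 ± 0.16), while Cdk2 (0.02 ± 0.07) and Cdc25a (-0.12 ± 0.15) were not called and Pkmyt1, the kinase related to Wee1, was not either (-0.51 ± 0.29). Of the CDK inhibitors, Cdkn1c (p57) had 1.42, 2.25 and 0.935 FPKM in WT and 20.2, 19.3 and 21.1 in KO (3.84 ± 0.24 SE, edgeR adjusted p = 8.7e-09), Cdkn1a (p21) fell (-0.65 ± 0.08) and Cdkn1b (p27) was not called (0.25 ± 0.09). D cyclins Ccnd2 (-1.79 ± 0.15) and Ccnd3 (-1.09 ± 0.09) fell and Rb1, which restrains the S phase genes, rose (0.90 ± 0.07). Among 18 p53 genes 5 fell and 2 rose, the latter being Phlda3 (1.86 ± 0.28) and Sesn1 (1.13 ± 0.06), while 8 fell under library totals. Over all genes tested, 16.2% fell and 14.8% rose.

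Calls among stress, redox and iron genes lay on both sides. In the unfolded protein and integrated stress response list 5 of 16 rose, led by Edem1 (0.56 ± 0.04) and Xbp1 (0.50 ± 0.04), with Hspa5 (0.11 ± 0.05) and Ddit3 (0.05 ± 0.10) not called, and 3 rose under library totals. Of 23 immediate early and heat shock genes, 5 fell and 4 rose, shares near the 16.2% and 14.8% of all genes tested. Fos was lower (-0.61 ± 0.10), and Atf3 (0.82 ± 0.04) and Egr2 (1.29 ± 0.08) were higher. The number that fell was 3 without WT replicate 1, 8 without WT replicate 1 of the oxLDL libraries and 9 with only the 6 untreated libraries in the fit. Gstm1, a glutathione transferase, had 225, 211 and 212 FPKM in WT and 601, 583 and 587 in KO (1.56 ± 0.05 SE, edgeR adjusted p = 2.3e-12). In the list it belongs to, 9 of 16 NRF2 and glutathione genes fell and 3 rose. Hmox1 (-0.61 ± 0.05), Prdx1 (-0.83 ± 0.08) and Gsr (-1.03 ± 0.05) were among those that fell. Of 14 iron handling genes tested, 6 fell and 3 rose. Trf, transferrin, had 8.77, 9.54 and 9.23 FPKM in WT and 39.4, 39.97 and 41.9 in KO (2.24 ± 0.05 SE, edgeR adjusted p = 2.6e-13), and the ferroxidase Cp fell from 5.2, 5.16 and 5.43 to 0.218, 0.166 and 0.23 (-4.52 ± 0.12 SE, edgeR adjusted p = 6.4e-13). The adhesion genes Icam1 and Vcam1 fell (-2.70 ± 0.06 and -2.73 ± 0.14), and Itgb2, the shared chain of the leukocyte integrins, rose (0.78 ± 0.04).

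The largest differences were on the lower side. Of the 12 genes lowest in KO, named by a rule on size, Gbp11 was listed at 0 in all KO libraries, at least 302-fold lower, and the predicted gene Gm47242 at least 96.3-fold lower. Ly6i (-9.05 ± 0.43), Cd300e (-8.87 ± 0.48), Gm4951 (-7.32 ± 0.20), Iigp1 (-7.24 ± 0.23), Serpina3f (-6.90 ± 0.42), Art2b (-6.83 ± 0.91), Gbp4 (-6.69 ± 0.23), Timd4, Fpr2 and Ifit1bl1 (-6.30 ± 0.33) completed it. The 12 highest in KO were not listed in any group above apart from Ace and Cdkn1c. Mamdc2, which encodes a secreted protein, had 1.86, 2.18 and 2.57 FPKM in WT and 45.7, 42.3 and 42.8 in KO (4.41 ± 0.09 SE, edgeR adjusted p = 6.3e-14) and was the most abundant of them. Tceal7 had 0.533, 0.757 and 0.31 FPKM in WT and 11.3, 12.3 and 11 in KO (4.56 ± 0.35 SE, edgeR adjusted p = 8.9e-08), Scgb1a1, a secretoglobin of airway club cells, had 0.438, 0.98 and 1.12 in WT and 13.1, 11.7 and 10.2 in KO (3.88 ± 0.53), and the RAS activator Rasgrp3 had 0.619, 0.69 and 0.532 in WT and 6.55, 6 and 6.04 in KO (3.44 ± 0.14 SE, edgeR adjusted p = 7.1e-11). Awat1 (4.99 ± 0.65), the WNT antagonist Sfrp5 (4.89 ± 0.60), B3gnt7 (4.45 ± 0.28), Cmbl (3.56 ± 0.51), Card14 (2.99 ± 0.42) and Efcc1 (2.92 ± 0.23) were the others, and in WT each was at most 0.417 FPKM.

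**Figure D4:**
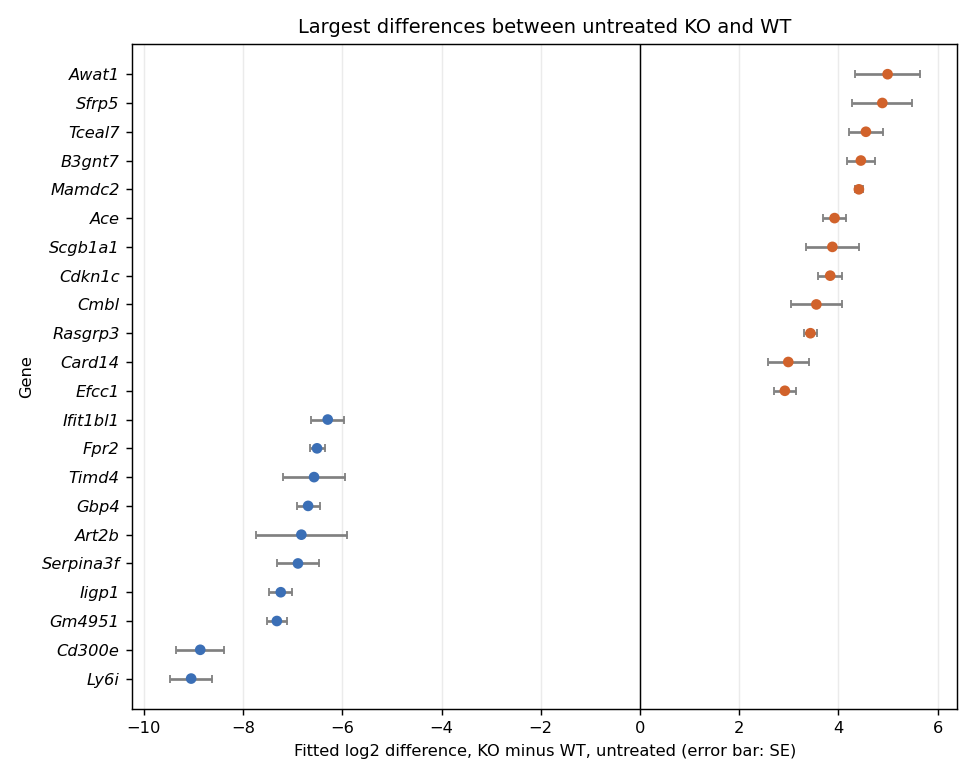
Fitted log2 difference, KO minus WT in untreated cells, with its SE, for the genes of largest difference in each direction (Gbp11 and Gm47242, at 0 in all KO libraries, are left out). The 10 lower genes lie between -9.05 and -6.30 and the 12 higher genes between 2.92 and 4.99.

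Whether the untreated difference was the same with oxLDL was tested as the difference between the 2 genotype differences, in libraries that the comparisons do not share. With oxLDL, 27.4% of the genes tested were lower in KO and 30.6% higher, and 7217 genes (41.7%) had a genotype difference that changed with oxLDL. This count depends on scaling: the difference went upward with oxLDL for 53% of those genes, and for 79.6% of the 9008 called with library totals, which moved the median over all genes from 0.08 to 0.49. Of the 2800 genes that fell untreated, 2159 also fell with oxLDL, which is 77.1% of the untreated list and 45.6% of the oxLDL list. Of the 2559 that rose, 1947 also rose, 76.1% and 36.8% of the lists. The direction was opposite for 183 genes that fell untreated and 248 that rose. Csf1r, -0.95 untreated, differed by -0.34 with oxLDL. Pparg rose by 1.91 untreated and 4.96 with oxLDL, and Rpl27a turned from -0.93 to 0.68. Marco was far lower in KO in both (-5.07 untreated and -5.57 with oxLDL), with a small called change (edgeR adjusted p = 0.018). Itgax (2.81 and 2.97) and Lyz2 (-0.96 and -0.85) had differences of close to the same size, and their change was not called (edgeR adjusted p = 0.12 and 0.12). CPM values of 7764 genes (44.9%) did not overlap between the untreated groups.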

How the data were processed

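All 12 libraries of the series, 3 in each of 4 groups, were profiled by RNA sequencing. The authors deposited 1 table with whole-number gene counts and FPKM for every library, per the file headers. The submitters' processing notes name HISAT2 2.0, Bowtie 0.12.2 and mm8. Gene coordinates in the table, however, overlapped those of GRCm38 for 99.9% of 21990 genes matched by Entrez number, and these are the coordinates printed. Which counter, strand setting and rule for reads with several matches applied is not given in the sources used here. Values of overlapping genes, antisense genes and near-identical families are therefore uncertain. The 27294 rows all name a gene. Where a symbol had several rows, the row with most counts was used.

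The deposited counts were tested with edgeR 4.0.16 in R 4.3.3 (filterByExpr, TMM factors, a quasi-likelihood fit over the 4 groups, Benjamini-Hochberg adjustment over all 17291 genes that passed the filter). Depth, 54574550 to 76393015 counts in the untreated libraries, left most abundant genes limited by the spread between libraries. Replicates were checked for repeats of 1 library: over genes with at least 1000 counts their counts differed by far more than sampling noise. A gene with 0 counts in a group was given a bound from a floor of 3 counts over that group, for counting error only. With 3 libraries against 3 an exact permutation test cannot go below 0.1, so only the fit across genes was used. The fit was tested on simulated data. Alternatives were DESeq2 1.42.0, RLE factors, library totals, no filter, limma 3.58.1 on log2(FPKM + 1) and log2(FPKM + 0.1), the replicate number as a block, only the 6 untreated libraries, and each library left out.

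Named are Wee1, the 12 largest called differences in each direction (mean FPKM of at least 1 in the higher group, groups not overlapping), the 10 most abundant genes, genes within 2 Mb of Wee1, and members of 62 gene lists, of which 781 of 837 different genes passed the filter. Some members are counted in their lists but not reported here by name. The comparison and the lists were chosen with earlier results of these data known, so they are no independent evidence. Tests of lists, exon-level counts and sequences were not used here.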

Additional observations from a re-analysis of the deposited data

Results flagged for a closer look

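The untreated KO minus WT difference was set against the same difference in the oxLDL libraries, and edgeR's test of the change in that difference called 7217 genes. Among the genes whose oxLDL values are given above, Pparg changed by 3.05 on the log2 scale. Rpl27a changed by 1.61, from lower to higher in KO. Csf1r changed by 0.62, its deficit in KO being smaller with oxLDL. Marco changed by -0.49, its deficit being larger with oxLDL.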

How the results depend on the processing

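The number of genes called between the untreated genotypes, 5359, stayed within 1.5 times under every alternative run, from 4842 (no filter) to 5804 (limma with a pseudocount of 1), and from 4553 to 5480 with 1 library left out. Between 4425 and 5345 of the 5359 calls were kept with their direction, and none was called in the opposite direction. Limma on FPKM and library totals gave a smaller share of higher calls than TMM. Wee1 was called under all of them, from -1.04 to -0.71, and from -1.0 to -0.80 with 1 library left out. The number of genes whose difference changed with oxLDL was 7217, and 6677 to 9162 under the alternatives (6681 to 7170 with 1 library left out). The data gave no sign that replicate numbers pair the samples. The correlations of deviations for same-numbered libraries were -0.02, 0.03 and -0.03, and 1 of 3 WT libraries correlated best with its own number. This is a hint from the data and cannot show whether the samples were paired in the design. With the replicate block 5056 genes were called untreated and 6927 for the change with oxLDL. Counts of list members moved by over 1.5 times in 60 of 992 comparisons with an alternative and in 59 of 1488 with a library left out. The lists not described above in this respect moved by 1 member, apart from alternative activation genes (3 higher without WT replicate 3, against 5). Of the named genes, Ctss, Eef1a1, H2-Aa, Kdm5d, Kdr, Lamp2, Ldha and mt-Co1 lost their call under library totals, and no named gene reversed. Calls of Cd3e and Cd3g also rested on single untreated libraries, and their counts limit them.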
